A study of Mus musculus with 6 samples.

Results

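Gnat1, Gnat2, Gnb1, Gnb3, Gngt1, Gngt2, Pdc, Rgs9, Gnb5 and Rgs9bp encode the G protein of mouse photoreceptors, the protein that binds its beta and gamma subunits, and the complex that switches it off. They were chosen by gene symbol for these known roles, with earlier results of these data known. They are 10 of the 22558 genes in the deposited gene table. The 6 libraries were made from eye total RNA of mice at postnatal day 21 and sequenced on an Illumina HiSeq instrument. The knockout group held 3 libraries from BC027072 -/- mice, with the strain given as C57BL/6, and the wild type group held 3 libraries from C57BL/6 mice (C57BL/6J in the series' own description). BC027072 is the mouse ortholog of human PCARE, a gene of the photoreceptor outer segment that is mutated in retinitis pigmentosa. How the knockout allele was built is not given in the sources used here. The labels do not say that replicates were separate animals, so a p-value here speaks only of how far these samples spread.

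In rods and cones, light-activated opsin makes the transducin alpha subunit take up GTP and leave its beta and gamma subunits, and the free alpha subunit turns on the phosphodiesterase that lowers cyclic GMP. Rods use Gnat1 with Gnb1 and Gngt1, and cones use Gnat2 with Gnb3 and Gngt2. Phosducin, encoded by Pdc, binds the freed beta and gamma subunits, and Rgs9, bound to Gnb5 and held at the membrane by Rgs9bp, speeds GTP hydrolysis so that the light response ends. Some members also act outside photoreceptors. Gnb1 is used by many cell types, Gnb3 is also the beta subunit of ON bipolar cells, and Gnb5 partners related RGS proteins in other neurons.

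The libraries held 5695530 to 10343820 estimated fragments in knockout and 8441944 to 21815950 in wild type. BC027072 had 3, 2 and 3 fragments in the knockout libraries, against 5854, 3667 and 2251 in the wild type libraries. Xist, expressed from the inactive X chromosome, had 11 and 18 fragments in knockout replicates 1 and 3 and 5905 in knockout replicate 2, against 7763 to 17749 in the wild type libraries. The 4 Y-linked genes read for sex together had 2047 and 2957 fragments in knockout replicates 1 and 3 and 2 in knockout replicate 2, against 1 to 7 in wild type. Both male libraries were knockout, and results are given also with sex as a term, where knockout replicate 2 alone carries the comparison within a sex. Markers of eye tissues were present in every library, among them Cryaa of the lens with 156526 to 276147 fragments in knockout and 268055 to 595562 in wild type, and Krt12, Rpe65, Glul and Pax6 of the cornea, pigment epithelium, glia and neural retina. Of 14919 genes tested, 431 were higher and 500 lower in knockout, against 723 and 357 with scaling by library totals only.

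Rod transducin, the cone alpha subunit Gnat2, phosducin and most of the shut-off complex were lower in knockout eyes. The cone beta subunit Gnb3 was higher. All 10 genes had fragments in every library and passed the filter on low counts. In edgeR's quasi-likelihood test with Benjamini-Hochberg adjustment over all genes tested, 7 of the 10 fell, against 3.35% of all genes tested, and 1 rose, against 2.89% (6.24% for either direction). Gngt2 and Rgs9 did not pass. Levels in the 3 knockout and 3 wild type libraries did not overlap for 9 of the 10 genes, against 23.3% of all genes tested. The median log2 fold change of the 10 genes, knockout over wild type, was -0.46, against 0.00 over all genes tested. These comparisons describe genes chosen with earlier results of these data known and do not test the list. With sex as a term all 10 kept their sign and 6 passed, 5 as lower and 1 as higher. The fit with sex called 144 lower and 91 higher over all genes. How many of all genes kept their sign was not counted. With limma on log2(FPKM + 1), where FPKM is fragments per kilobase of transcript and carries the authors' own scaling, 0 of the 10 passed in either direction, while at an unadjusted p of 0.05 1 was higher and 5 were lower. That fit called only 12 genes higher and 4 lower over all genes, and DESeq2 on the fragments gave the same calls as edgeR for all 10.

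**Figure D1:**
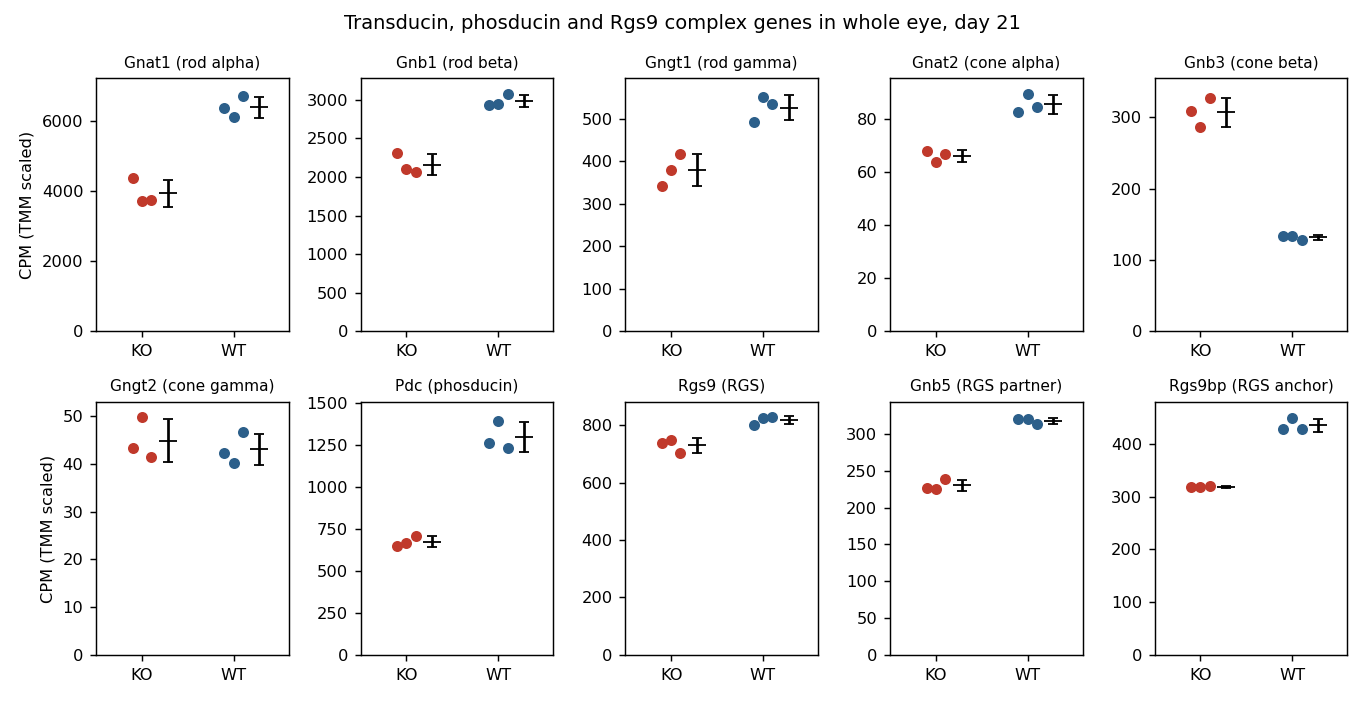
Level of each of the 10 genes in every library, in CPM (the fragments of a gene relative to its library's TMM-scaled total; y axes from 0, each with its own scale), with knockout libraries (KO) in red at the left and wild type libraries (WT) in blue at the right. Points are libraries and bars are the mean and SD (n = 3 each). Gngt2 is the gene whose groups overlap, and Gnb3 is the gene with every knockout library above every wild type library.

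RefSeq promoter sequences (GRCm38.p6, a later build than the mm9 of the deposited positions) were at hand for 6 of the 10 genes. They were searched for GGATTA and, on the other strand, TAATCC, the core letters bound by the photoreceptor homeodomain factor Crx and its relative Otx2. Within a 300-base window, from 250 bases before to 50 after the gene start, the letters occur in 2320 of 32851 promoters, or 7.06%, and in 3 of the 6 available here. The 120 bases before the start are shown for those 3 genes, all lower in knockout, with the match in capitals, and for Pdc, the member that fell most, where the window holds no match:
Gngt1, chr6:3993888-3994007, plus strand: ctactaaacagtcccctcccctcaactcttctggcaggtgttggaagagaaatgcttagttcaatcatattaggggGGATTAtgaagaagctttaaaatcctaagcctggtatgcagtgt
Gnat2, chr3:108092946-108093065, plus strand: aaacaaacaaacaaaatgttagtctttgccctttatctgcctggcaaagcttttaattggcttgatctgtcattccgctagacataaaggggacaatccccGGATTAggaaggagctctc
Gnb5, chr9:75306168-75306287, plus strand: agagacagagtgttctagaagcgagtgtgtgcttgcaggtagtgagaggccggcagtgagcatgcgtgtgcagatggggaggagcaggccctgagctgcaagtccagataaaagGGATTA
Pdc, chr1:150319297-150319416, plus strand: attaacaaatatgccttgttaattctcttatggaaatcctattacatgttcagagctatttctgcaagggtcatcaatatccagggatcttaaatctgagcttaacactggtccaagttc
The match begins 44 bases before the start in Gngt1, 19 in Gnat2 and 6 in Gnb5. The promoters of Gnb1, which was lower in knockout like Pdc, and of Rgs9, which did not pass, also hold no match in the window. Genes with a match and genes without one were both among those lower in knockout. Any link between the letters and the changes was not tested. A match says only that the letters are there.

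The 3 rod transducin genes all fell. Gnat1, which encodes the rod alpha subunit (chromosome 9, 107576805 to 107581923 in mm9), had 4378, 3710 and 3739 CPM in knockout libraries, against 6378, 6129 and 6728 CPM in wild type libraries. The groups stood apart, and knockout replicate 1 was the highest of its group. The means were 3942 ± 378 and 6412 ± 301 CPM (SD, n = 3 each), which put knockout at 61.5% of wild type (log2 fold change -0.70 ± 0.07, SE; edgeR adjusted p = 1.19e-05). With sex as a term the log2 fold change was -0.79 ± 0.12 (edgeR adjusted p = 0.00378).

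Gnb1, which encodes the beta subunit of rods (chromosome 4, 154865470 to 154933378), had 2311, 2107 and 2064 CPM in knockout libraries, against 2932, 2943 and 3070 CPM in wild type libraries. As for Gnat1, knockout replicate 1 was the highest knockout library and wild type replicate 3 the highest wild type library. The means of 2161 ± 132 CPM in knockout and 2982 ± 76.3 CPM in wild type gave a log2 fold change of -0.46 ± 0.06 (edgeR adjusted p = 0.000243), and with sex as a term -0.50 ± 0.10 (adjusted p = 0.0297). Gngt1, the rod gamma subunit that anchors the complex to the membrane by its lipid tail (chromosome 6, 3944012 to 3947436), had 341, 379 and 417 CPM in knockout libraries, against 493, 551 and 535 CPM in wild type libraries. The groups did not overlap, and replicate 1, the highest knockout library for Gnat1 and Gnb1, was here the lowest. Its log2 fold change was -0.47 ± 0.08 (edgeR adjusted p = 0.00101), and with sex as a term it had the same size without passing (-0.47 ± 0.12, adjusted p = 0.0735).

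The 3 cone transducin genes went different ways. Gnat2, the cone alpha subunit (chromosome 3, 107895986 to 107904203), had 67.9, 63.7 and 66.6 CPM in knockout libraries, against 82.7, 89.4 and 84.4 CPM in wild type libraries. Every knockout library was below every wild type library, and knockout stood at 77.4% of wild type (log2 fold change -0.37 ± 0.06, edgeR adjusted p = 0.00162). Gnat2 did not pass with sex as a term (-0.42 ± 0.10, adjusted p = 0.0588).

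Gnb3, the beta subunit of cones and of ON bipolar cells (chromosome 6, 124784258 to 124790293), had 309, 286 and 327 CPM in knockout libraries, against 134, 133 and 128 CPM in wild type libraries. The lowest knockout library was above the highest wild type library by more than the whole spread within either group. The means were 307 ± 20.4 CPM in knockout and 132 ± 3.26 CPM in wild type, a 2.33-fold difference (log2 fold change 1.22 ± 0.06, edgeR adjusted p = 1.05e-08). With sex as a term it was 1.12 ± 0.08 (edgeR adjusted p = 1.50e-05), and in limma on log2(FPKM + 1) 1.21 ± 0.18 (adjusted p = 0.0537).

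Gngt2, the cone gamma subunit (chromosome 11, 95685814 to 95707045), had 43.3, 49.9 and 41.4 CPM in knockout libraries, against 42.3, 40.2 and 46.6 CPM in wild type libraries. The groups overlapped, with knockout replicate 2 the highest of the 6 libraries. The log2 fold change was 0.06 ± 0.08 (edgeR adjusted p = 0.794), and without knockout replicate 2 it was -0.017 ± 0.087. The locus listed for Gngt2 is listed also for Abi3, a regulator of actin assembly, and for a further gene, so its ends need not be those of Gngt2. The strand of the libraries is not given in the sources used here, so any reads from overlapping genes cannot be told apart. Abi3 had a log2 fold change of 0.21 ± 0.11 (edgeR adjusted p = 0.320).

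**Figure D2:**
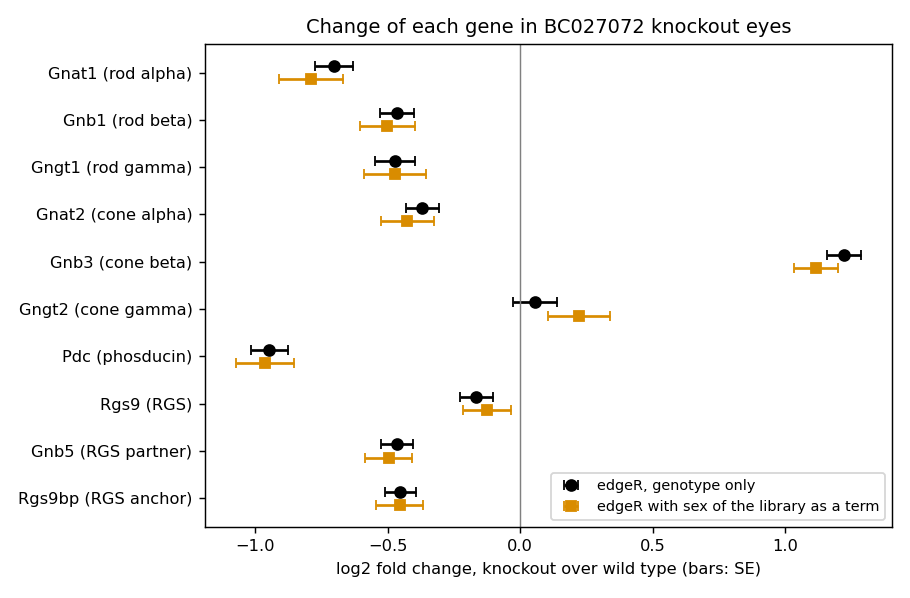
Log2 fold change of each of the 10 genes, knockout over wild type (x axis), from edgeR with genotype only (black circles) and with the sex of the library added as a term (orange squares), with bars of 1 SE. Gnb3 lies at 1.22 and 1.12, Gngt2 and Rgs9 lie nearest to 0, and the other 7 genes lie below 0 in both fits.

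Phosducin fell more than any transducin gene on the log2 scale. Pdc (chromosome 1, 152166547 to 152193901) had 645, 666 and 708 CPM in knockout libraries, against 1262, 1395 and 1232 CPM in wild type libraries. The highest knockout library was far below the lowest wild type library. The means of 673 ± 31.9 CPM in knockout and 1296 ± 86.7 CPM in wild type put knockout at 51.9% (log2 fold change -0.95 ± 0.07, edgeR adjusted p = 3.84e-07), and Pdc passed with sex as a term (-0.96 ± 0.11, adjusted p = 0.00044). The gene 2310030A07Rik is listed at the same locus, so the ends given need not be those of Pdc alone. 2310030A07Rik had a mean of 3.36 ± 1.06 CPM in knockout and 7.16 ± 0.736 CPM in wild type. It fell too (-1.001 ± 0.202, edgeR adjusted p = 0.00578), and any shared reads cannot be told apart there.

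Of the complex that switches transducin off, Gnb5 and Rgs9bp fell and Rgs9 did not pass. Rgs9, the GTPase accelerator itself (chromosome 11, 109086669 to 109159495), had 736, 750 and 701 CPM in knockout libraries, against 801, 824 and 827 CPM in wild type libraries. The groups did not overlap, but the difference was small, with knockout at 89.2% of wild type (log2 fold change -0.16 ± 0.06, unadjusted p = 0.0161, edgeR adjusted p = 0.138). Gnb5, the beta subunit that stabilises RGS proteins of the R7 family to which Rgs9 belongs (chromosome 9, 75159202 to 75193478), had 226, 225 and 239 CPM in knockout libraries, against 320, 320 and 313 CPM in wild type libraries. Its values differed little within a group and stood apart between groups (log2 fold change -0.46 ± 0.06, edgeR adjusted p = 0.000111). It also passed with sex as a term (-0.50 ± 0.09, edgeR adjusted p = 0.0134). Rgs9bp, the membrane anchor (chromosome 7, 36364013 to 36370601), had 318, 318 and 320.4 CPM in knockout libraries, against 428, 450.1 and 429 CPM in wild type libraries. The knockout libraries agreed within a coefficient of variation of 0.472%, the lowest of the 10 genes. The log2 fold change was -0.45 ± 0.06 (edgeR adjusted p = 0.00015), and with sex as a term -0.45 ± 0.09 (adjusted p = 0.0207).

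The authors' deposited table had the same 8 genes past its own threshold, against 3.77% of all genes it tested that were lower and 3.18% that were higher. In the authors' deposited table the log2 ratio of knockout over wild type FPKM was 1.19 for Gnb3 (q = 0.00162), -0.90 for Pdc (q = 0.00162) and -0.77 for Gnat1 (q = 0.00162). Gnb1 (-0.49, q = 0.0207), Gngt1 (-0.53, q = 0.00162), Gnat2 (-0.35, q = 0.00759), Gnb5 (-0.54, q = 0.00162) and Rgs9bp (-0.41, q = 0.00417) were also lower in the authors' deposited table. Gngt2 (q = 0.749) and Rgs9 (q = 0.641) were not called in the authors' deposited table.

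Rod against cone subunits were then compared by the ratio of fragments within a library, which does not depend on scaling between libraries. Gnat1 over Gnat2 was 64.4, 58.3 and 56.2 in knockout libraries, against 77.2, 68.6 and 79.7 in wild type libraries. Gnb1 over Gnb3 was 7.47, 7.37 and 6.32 in knockout libraries, against 21.9, 22.1 and 24.0 in wild type libraries. Gngt1 over Gngt2 was 7.88, 7.60 and 10.1 in knockout libraries, against 11.7, 13.7 and 11.5 in wild type libraries. All 3 rod to cone ratios were lower in every knockout library than in any wild type library, and the beta pair differed most. Gnb1 is also used by many cell types and Gnb3 by ON bipolar cells, so the beta ratio is not of rods and cones alone. Both male libraries were knockout, and no ratio was tested with sex as a term. The log2 difference, knockout minus wild type, was -0.33 for the alpha pair, -1.69 for the beta pair and -0.53 for the gamma pair. An exact two-sided permutation test gave p = 0.1 for each, the smallest value that 3 against 3 libraries allow, and 0.1 after adjustment over the 3 ratios. The ratios rest on different changes: in the alpha pair both genes fell, in the beta pair Gnb1 fell and Gnb3 rose, and in the gamma pair Gngt1 fell and Gngt2 did not pass.

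**Figure D3:**
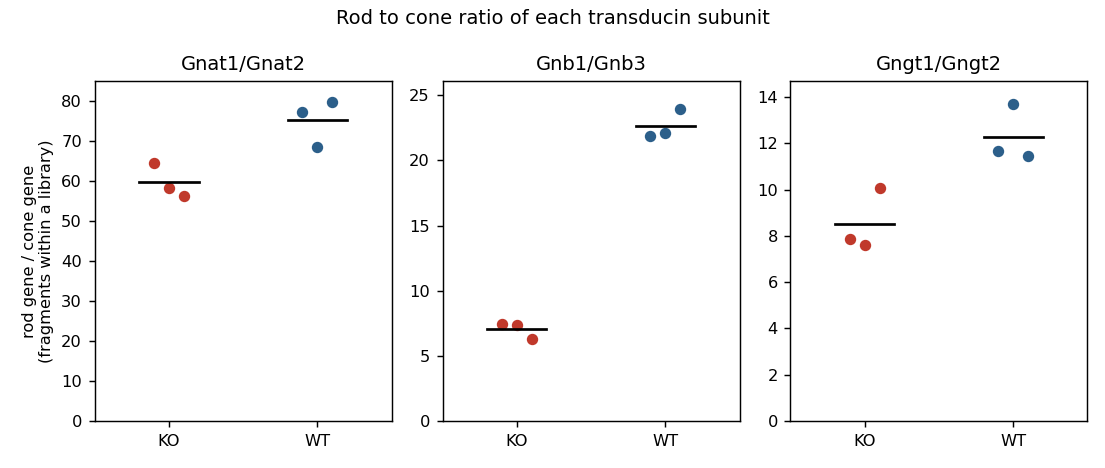
Ratio of fragments of the rod gene to the cone gene within each library (y axes, linear from 0), for the alpha, beta and gamma subunits, with knockout libraries (KO) in red at the left, wild type libraries (WT) in blue at the right and lines at the mean of each group. The ratio of Gnb1 to Gnb3 lies between 6.32 and 7.47 in knockout and between 21.9 and 24.0 in wild type.

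Per length, on the FPKM scale, the cone gene made up a small share of the alpha pair and a larger one of the beta and gamma pairs. Gnb3 was 22.6%, 24.8% and 24.0% of the summed FPKM of Gnb1 and Gnb3 in knockout libraries, against 8.30%, 12.7% and 6.39% in wild type libraries, without overlap. These FPKM did not follow the fragments by a scaling per library alone: for Gngt1, wild type replicate 2 was the highest wild type library in CPM (551) and the lowest in FPKM (259). Gnat2 was 2.15 ± 0.388% of its pair in knockout and 1.61 ± 0.200% in wild type (SD, n = 3 each). Gngt2 was 30.0 ± 4.50% of its pair in knockout and 23.1 ± 9.91% in wild type, with overlapping groups. From CPM per kilobase of the longest isoform, a measure added after the data were seen, the share of Gngt2 was lower, at 16.7 ± 2.08% in knockout and 12.2 ± 1.02% in wild type, and the groups did not overlap. By that measure Gnb3 was 18.6% to 21.2% of its pair in knockout and 6.63% to 7.22% in wild type. On FPKM the difference in the log2 rod to cone ratio was -0.42 for the alpha pair and -1.69 for the beta pair (exact permutation p = 0.1 each), and -0.58 for the gamma pair (exact permutation p = 0.3).

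The order of the levels per length was led by Gnat1 in both genotypes. On the FPKM scale Gnat1 averaged 1838 ± 136 in knockout and 3145 ± 407 in wild type, Gnb1 643 ± 6.72 in knockout and 904 ± 155 in wild type, and Pdc 399 ± 87.7 in knockout and 744 ± 179 in wild type (SD, n = 3 each). The rod alpha gene was thus at 2.86 times the FPKM of the rod beta gene in knockout and 3.48 times in wild type. Gngt1 followed with 299 ± 66.9 FPKM in knockout and 433 ± 198 in wild type.

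Gnb3 was the gene whose place differed most between genotypes. In knockout it was the fifth gene by FPKM, with 201 ± 12.4, above Gnb5 with 166 ± 11.6 and Gngt2 with 126 ± 17.5. In wild type it averaged 87.8 ± 20.3 FPKM, below Gnb5 with 241 ± 33.7 and next to Gngt2 with 117 ± 25.5 and Rgs9 with 77.6 ± 15.6, whose libraries overlapped with its own. Rgs9 had 70.6 ± 6.53 FPKM in knockout. Gnat2 and Rgs9bp were the lowest in both genotypes, with 40.1 ± 4.24 and 37.4 ± 4.31 FPKM in knockout and 51.2 ± 6.34 and 49.7 ± 8.58 FPKM in wild type, and overlapped each other. The libraries of neighbouring genes also overlapped for Pdc and Gngt1 in both genotypes, and in wild type for Gnb1 and Pdc and for Gngt1 and Gnb5. With CPM per kilobase of the longest isoform in place of FPKM, 6 of the 10 genes kept their place in knockout and 3 in wild type. Gnat1 was first in both. In knockout the order from Gnat1 down to Gnb5 was the same by both measures, and the places below Gnb5 changed. In wild type Gnb1 and Pdc changed places, as did the genes below Gnb5. The order below Gnat1 in wild type, and below Gnb5 in knockout, thus depends on the measure.

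**Figure D4:**
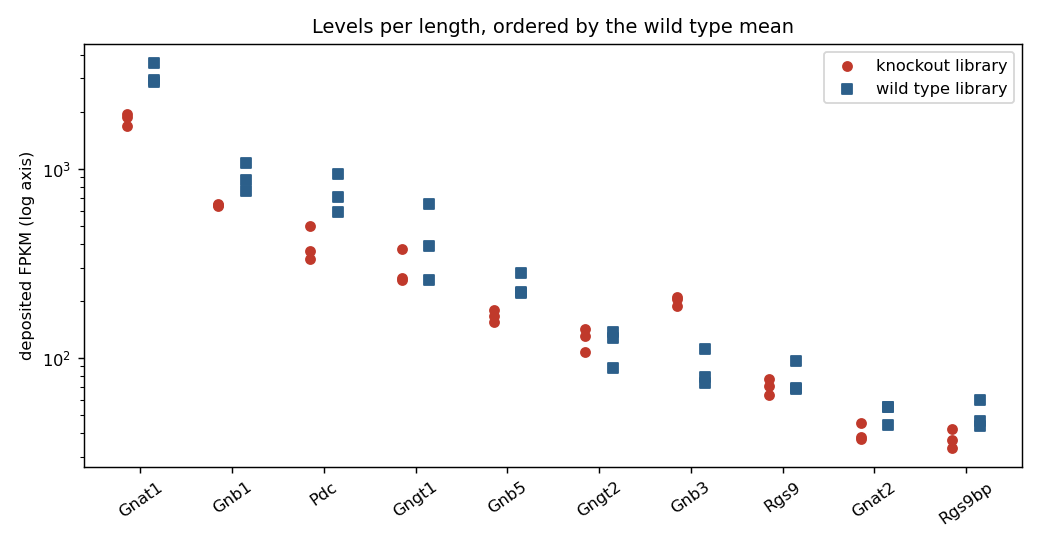
Deposited FPKM of each gene in each library (log axis), with knockout libraries as red circles left of wild type libraries as blue squares, and genes ordered by their wild type mean. Gnat1 is above every other gene in every library, and Gnb3 is the gene whose knockout points lie clearly above its wild type points.

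The isoform table split the 10 genes into 16 transcripts, with 5 genes having 1 and 5 having several. All 16 were tested with edgeR. Of these, 7 fell, against 1.02% of all isoforms tested, and 1 rose, the single Gnb3 transcript NM_013530, against 0.55%. These calls were less stable than those of the genes, and with 1 library left out between 1 and 4 isoforms fell in place of 7. Without wild type replicate 3 it was 1, without knockout replicate 2 or wild type replicate 2 it was 2, without wild type replicate 1 it was 3, and without knockout replicate 1 or 3 it was 4. With sex as a term, 1 of the 7, NM_001159730 of Pdc, still passed as lower (adjusted p = 0.0479), as did NM_013530 as higher (adjusted p = 0.0117).

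Within Gnb1, the main transcript NM_001160017 held 69.8%, 69.9% and 67.4% of the fragments of the gene in knockout libraries, against 74.9%, 75.1% and 72.7% in wild type libraries. The transcript NM_008142 held 24.0%, 26.5% and 22.9% in knockout libraries, against 20.2%, 18.0% and 19.9% in wild type libraries. Neither share overlapped between the groups. Shares of transcripts within a gene are tied to each other, and the share of all isoforms without overlap was not counted. NM_001160017 fell (log2 fold change -0.56 ± 0.06, edgeR adjusted p = 0.0160), whereas NM_008142 had -0.13 ± 0.09 (adjusted p = 0.618). The difference between the transcripts was not tested, and the call for NM_001160017 was lost without knockout replicate 2 (adjusted p = 0.0786) or any 1 wild type replicate (0.0705 to 0.0783).

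Both Pdc transcripts fell. NM_024458 held 65.9 ± 3.27% of the gene's fragments in knockout and 62.3 ± 1.99% in wild type, with a log2 fold change of -0.86 ± 0.07 (edgeR adjusted p = 0.00952), and it did not pass with sex as a term (adjusted p = 0.0826). For NM_001159730 the log2 fold change was -1.08 ± 0.11 (edgeR adjusted p = 0.0125), lost without knockout replicate 1 (0.0596), wild type replicate 2 (0.0564) or wild type replicate 3 (0.0661). Rgs9 was almost entirely NM_001165934, with 99.8 ± 0.0731% of fragments in knockout and 99.6 ± 0.0341% in wild type. The shorter NM_011268 had only 7.16 to 19.3 estimated fragments per knockout library and 31.9 to 70.6 per wild type library, and did not pass (-1.39 ± 0.32, edgeR adjusted p = 0.135). The shares of the Gnb5 transcripts overlapped between groups, and NM_138719 held 74.0 ± 3.28% in knockout and 72.1 ± 3.26% in wild type. For Gngt2, NM_001038664 held 54.4%, 43.7% and 52.0% in knockout libraries, against 54.9%, 56.6% and 59.6% in wild type libraries. Every knockout library was lower, but knockout replicate 1 was close to wild type replicate 1. Here too the share of all isoforms without overlap was not counted.

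Few other G protein genes passed. Of 13 other alpha subunit genes tested, 1 rose, Gna14 (log2 fold change 0.83 ± 0.15, edgeR adjusted p = 0.00311), a subunit of the Gq class, and 1 fell, Gnaz (-0.55 ± 0.07, adjusted p = 0.000133), a subunit of the Gi class. The next by p was Gnai2, with 0.21 ± 0.06 (edgeR adjusted p = 0.0591). The median of the list was 0.05, and neither gene passed with sex as a term (adjusted p = 0.226 for Gna14 and 0.0515 for Gnaz). Of 11 other beta and gamma genes, 1 rose, Gnb2, a widely used beta subunit (0.26 ± 0.06, edgeR adjusted p = 0.0165), and 0 fell, with 1 lower at an unadjusted p of 0.05 and 0 lower in DESeq2. The call for Gnb2 was lost without knockout replicate 1 (adjusted p = 0.0623), knockout replicate 2 (0.0857) or wild type replicate 2 (0.0714), and with sex as a term (0.234). Gng11 had 0.34 ± 0.10 (adjusted p = 0.0595) and Gng4 -0.29 ± 0.11 (adjusted p = 0.144), and the median of the list was 0.04.

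The relatives of Rgs9 and their anchors gave 0 calls in either direction in edgeR and in DESeq2 among 6 genes, with 1 higher and 1 lower at an unadjusted p of 0.05 in edgeR and a median of -0.09. Rgs6, which like Rgs9 pairs with Gnb5, had 0.35 ± 0.12 (edgeR adjusted p = 0.0969), the anchor Rgs7bp -0.20 ± 0.08 (0.147) and the R7-binding receptor Gpr158 -0.16 ± 0.08 (0.306). Among 19 genes for folding, loading and transport of G proteins, 1 fell and 0 rose, with 5 lower and 0 higher at an unadjusted p of 0.05, 1 lower and 0 higher in DESeq2, and a median of -0.04. The gene that fell was Unc119, whose product carries lipid-modified alpha subunits of transducin. It averaged 526 ± 28.6 CPM in knockout and 706 ± 26.2 CPM in wild type (SD, n = 3 each; log2 fold change -0.42 ± 0.07, edgeR adjusted p = 0.00065), and it passed with sex as a term (-0.47, adjusted p = 0.0283). Gpsm1, a regulator of Gi alpha subunits, had -0.24 ± 0.07 (edgeR adjusted p = 0.0531) and Ric8b, a chaperone of alpha subunits, -0.20 ± 0.07 (adjusted p = 0.0924).

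Most other phototransduction genes measured were also lower in knockout. Of 13 genes tested in the list of other rod phototransduction steps, 11 fell and 1 rose, with a median log2 fold change of -0.38. With sex as a term 6 of these 12 still passed. Whether cones also use genes of this rod list was not examined. Gucy2f, a guanylate cyclase that restores cyclic GMP, had -0.69 ± 0.07 (edgeR adjusted p = 4.99e-06), and Pde6b, a catalytic subunit of the phosphodiesterase that transducin turns on, -0.52 ± 0.06 (adjusted p = 4.44e-05). The gene that rose was the rod arrestin gene Sag (0.33 ± 0.06, edgeR adjusted p = 0.00249), a gene picked out only once its values had been seen. Sag did not pass with sex as a term (0.29 ± 0.09, adjusted p = 0.197). Of 8 other cone genes, 6 fell and 0 rose, with 0 higher also at an unadjusted p of 0.05, and the median was -0.46. DESeq2 gave 5 lower and 0 higher. The 6 that fell in edgeR included the cone opsin genes Opn1mw (-0.96 ± 0.07, edgeR adjusted p = 3.84e-07) and Opn1sw (-0.62 ± 0.07, adjusted p = 1.81e-05). They also included Arr3, cone arrestin (-0.75 ± 0.07, adjusted p = 4.87e-06). Of the 6 cone genes that fell, 3 passed with sex as a term. Gnb3 was therefore the one cone gene, among the members and this list, that passed as higher.

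Markers of the cells that use these genes were read beside them. The rod markers Nrl, Nr2e3 and Pde6b were all 3 lower, with a summed level of 1441 to 1528 CPM in knockout and 2349 to 2435 CPM in wild type. All 4 cone markers, Opn1sw, Opn1mw, Arr3 and Pde6h, are genes already counted in the cone list above, as Pde6b is in the rod list. They were all lower, with a summed level of 322 to 330 CPM in knockout and 504 to 534 CPM in wild type. Of 9 ON bipolar markers, 3 fell (Pcp2, Prkca and Bhlhe23) and 0 rose, with 0 higher also at an unadjusted p of 0.05. DESeq2 gave 2 lower and 0 higher, and Bhlhe23 did not pass in it (adjusted p = 0.101). The 9 markers had a summed level of 768 to 809 CPM in knockout and 838 to 870 CPM in wild type. The median log2 fold change of the 9 was -0.14. Each of the 3 calls was lost without knockout replicate 2, knockout replicate 3 or wild type replicate 2, and Bhlhe23 also without knockout replicate 1 or wild type replicate 1 (adjusted p of 0.0525 to 0.111), and none of the 3 passed with sex as a term. Grm6, the glutamate receptor of ON bipolar cells, had a log2 fold change of -0.02 ± 0.08 (edgeR adjusted p = 0.926), and Trpm1, their channel, -0.00 ± 0.06 (adjusted p = 0.988). Markers of other eye tissues also differed. Glul fell (-0.30 ± 0.06, edgeR adjusted p = 0.00762), Rpe65 fell (-0.28 ± 0.07, adjusted p = 0.0231) and Krt12 rose (0.25 ± 0.07, adjusted p = 0.0396), and each missed the threshold once sex was a term (adjusted p = 0.261 for Glul, 0.183 for Rpe65 and 0.292 for Krt12). The call for Rpe65 was lost without knockout replicate 1, knockout replicate 2 or wild type replicate 2 (adjusted p of 0.102 to 0.128), and that for Krt12 without any 1 library other than wild type replicate 3 (0.0779 to 0.170). Cryaa (-0.12 ± 0.07, adjusted p = 0.350) and Pax6 (0.06 ± 0.06, adjusted p = 0.632) did not pass. With scaling by library totals only, Rpe65 (edgeR adjusted p = 0.0759), Prkca (0.0784) and Bhlhe23 (0.0628) did not pass either, while Pcp2, Glul and Krt12 did. No marker was at 0 in every library. In RNA from the whole eye, fewer cells of a type and less RNA per cell cannot be told apart, and the part of these marker differences in the values of the 10 genes was not tested.

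**Figure D5:**
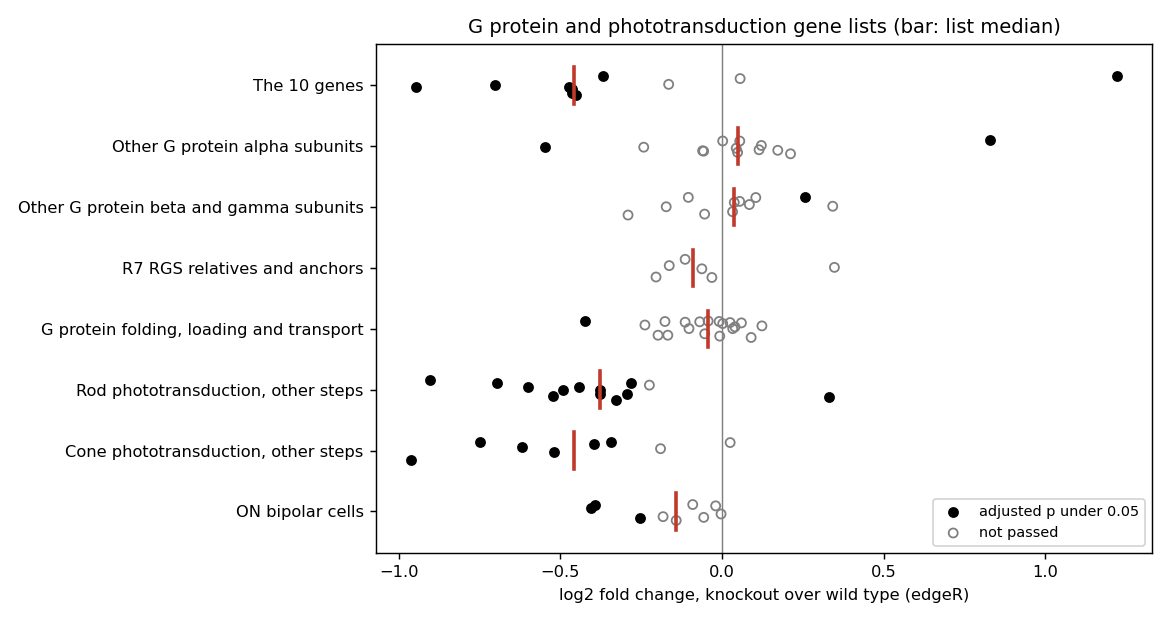
Log2 fold change, knockout over wild type, of each gene tested in 8 lists (x axis), with filled points for an edgeR adjusted p under 0.05, open points for genes that did not pass and a red bar at the median of each list. The medians of the 10 genes and of the other rod and cone phototransduction genes lie between -0.46 and -0.38, and those of the other G protein lists between -0.09 and 0.05.

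The genes nearest in pattern were sought by Pearson correlation of log2 CPM over the 6 libraries, among 11002 genes with a mean of at least 10 CPM, as a description. The 6 points share the difference between genotypes, which the correlation takes in. For Gnat1 the nearest were 8430427H17Rik (r = 0.999), Gnb1 (0.998) and Crb2, a polarity gene of the photoreceptor and Müller cell junctions (0.997). Of these, 8430427H17Rik averaged 54.4 ± 2.60 CPM in knockout and 68.2 ± 1.61 CPM in wild type, and Crb2 45.2 ± 2.19 CPM in knockout and 61.3 ± 2.75 CPM in wild type. For Gnb3 the nearest were Antxr2, an anthrax toxin receptor gene (r = 0.998), Fam78b (0.997) and Crym, a thyroid hormone binding protein gene (0.995). Antxr2 averaged 69.5 ± 3.06 CPM in knockout and 25.7 ± 0.735 CPM in wild type, and Crym 62.2 ± 0.587 CPM in knockout and 27.1 ± 0.659 CPM in wild type.

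Genes lying within 5 kb of the 10 genes were checked for like changes. Beside Gnb3, the cell division gene Cdca3 begins at 124780194 and ends at 124783719 on chromosome 6, 538 bases from the Gnb3 locus. It averaged 4.63 ± 0.788 CPM in knockout and 2.54 ± 0.361 CPM in wild type (log2 fold change 0.92 ± 0.21, edgeR adjusted p = 0.0136). The call for Cdca3 was lost without knockout replicate 1 (adjusted p = 0.0844), without wild type replicate 1 (0.0675) and with sex as a term (0.519). The other neighbours tested did not pass, apart from 2310030A07Rik at Pdc.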

How the data were processed

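Eye total RNA of 3 knockout and 3 wild type samples was sequenced, with reads processed by Cuffdiff 2.2.1, Cufflinks 2.2.1 and TopHat2 2.0.12 on build mm9, per the submitters' processing notes. The authors deposited estimated counts of fragments per gene and isoform, not scaled between libraries. The authors also deposited FPKM, which carry their own scaling, and transcript lengths. A deposited comparison by the authors holds group FPKM, p-values and q-values, and its log2 fold changes were recomputed here from those FPKM because part of that column held no numbers. Of the deposited gene values 98.5% were whole within 1e-06, and of the isoform values 71.7%. All were rounded. Genes (7) and isoforms (12) whose estimate had failed in a library were left out, and no value column was left unmatched (0). Libraries are numbered from 0 in the files and from 1 in the labels, so the numbers only name libraries within a group.

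Counts were tested with edgeR 4.0.16 in R 4.3.3 (TMM, filterByExpr with a minimum count of 10 and minimum total of 15, quasi-likelihood F test over all 6 libraries, Benjamini-Hochberg threshold 0.05), and the SE was taken as the absolute log2 fold change over the root of F. Isoforms needed a mean FPKM of at least 1. Ratios were tested by exact permutation (scipy 1.17.1). Alternatives were DESeq2 1.42.0, other scaling, no filter, limma 3.58.1 on log2(FPKM + 1) and log2(FPKM + 0.1), left-out libraries, a replicate block, sex as a term and, added after the data were seen, the Xist-positive libraries alone. The scripts were tested on simulated data. Sex was read from Xist and the Y-linked genes Ddx3y, Eif2s3y, Kdm5d and Uty. The members and gene lists were chosen with earlier results of these data known. Named are the 10 genes, the 3 genes of each list with the smallest p, the 3 genes most like Gnat1 and Gnb3 in pattern and, of the neighbours within 5 kb, those that passed and Abi3. Cell markers are named as fixed lists, Grm6, Trpm1, Cryaa and Pax6 among them, and Sag was added after its values were seen. Among the genes this would name, 1 is not reported here. The total count per library, 5695530 to 21815950 fragments, limits the precision of low genes. Promoters came from RefSeq (GRCm38.p6) and none of their positions was compared with mm9.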

Additional observations from a re-analysis of the deposited data

How the results depend on the processing

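All 10 genes kept their sign under every alternative run except Gngt2, which ran between -0.017 (without knockout replicate 2) and 0.11 with 1 library left out. Leaving out any 1 library left 7 lower and 1 higher. With sex as a term, 5 were lower and 1 higher, and in the Xist-positive libraries alone 6 and 1, where the 1 knockout library is assumed to vary like wild type. Limma on log2(FPKM + 1) and on log2(FPKM + 0.1) each called 0 lower and 0 higher (5 and 1 at unadjusted p under 0.05); the cause was not tested. Over all genes, 431 were higher and 500 lower; library totals only gave 723 higher, sex as a term 91 higher and 144 lower, the Xist-positive libraries 96 and 149, and both limma fits 12 and 4. Leaving out 1 library gave 271 to 425 higher and 315 to 460 lower: 277 higher without knockout replicate 1, 275 higher and 315 lower without knockout replicate 2, and 271 higher without wild type replicate 2. Member isoforms that fell numbered 7, against 1 to 4 with 1 library left out, 1 with sex as a term and 11 in DESeq2. In the gene order by level, 6 genes kept their place in knockout and 3 in wild type with CPM per kilobase. Same-numbered libraries deviated together with correlations of 0.13, 0.07 and -0.05, and differently numbered ones with -0.165 to 0.0943. Whether same-numbered libraries shared a batch cannot be told from these values. A replicate block left 7 genes lower and 1 higher and called 0 isoforms lower and 0 higher (11 and 1 at unadjusted p under 0.05). Depth limits the rare Rgs9 transcript and Cdca3.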
